A study of Mus musculus with 16 samples.

Results

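The genes described here are the major histocompatibility complex (MHC) class II genes of the mouse and their regulators. The 10 listed genes are H2-Aa, H2-Ab1, H2-Eb1, H2-DMa, H2-DMb1, H2-DMb2, H2-Oa, H2-Ob, Cd74 and Ciita. A gene counted as measured when at least 1 probe set of the array named that gene and no other. By this rule 8 of the 10 listed genes were measured, among 19938 genes in all. H2-DMb1 and H2-DMb2 share a probe set that names both of them, so neither has a value of its own. Each of the other 8 genes rests on 1 probe set.

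MHC class II molecules are cell surface dimers of an alpha and a beta chain that show peptides from the endosomal pathway to CD4 T cells. The chains are made with the invariant chain, which fills the peptide groove until endosomal proteases cut it, and the chaperone H2-DM then helps exchange its last fragment for other peptides. H2-DO, made mostly in B cells, holds H2-DM back. Transcription of these genes in B cells, dendritic cells and macrophages depends on the coactivator Ciita, which does not bind DNA itself but is recruited by factors sitting on the X and Y boxes of class II promoters.

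The arrays measured total RNA from mouse bone marrow in 3 groups. Leukemic marrow came from mice heterozygous for Pax5 alone (Pax5+/-, 6 arrays, written Pax5 leukemia) or for Bank1 and Pax5 together (Bank1+/- + Pax5+/-, 6 arrays, written Bank1/Pax5 leukemia), and the control group was pro-B and pre-B cells of wild-type mice (WT, 4 arrays). Heterozygous Pax5 loss is thus common to all leukemias, and the study asked about Bank1 as a tumor suppressor in B cell precursor leukemia. The leukemic samples are labelled as total marrow and the WT samples as a precursor fraction, so genotype, disease and cell fraction cannot be told apart in either comparison with WT. The cell type field of the WT samples reads leukemic, which goes against their other labels. The series text names 3 WT mice, while 4 WT arrays are labelled as biological replicates. The labels give no strain, age, sex or array batch. In bulk RNA a lower level can mean fewer cells of a type or less RNA in each cell, and these cannot be told apart.

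Array medians lay between 6.58 and 6.71 on the log2 scale used throughout, on which a difference of 1 is a 2-fold change. Over all genes the arrays of a group correlated with each other at 0.992 to 0.995 in WT, 0.968 to 0.982 in Pax5 leukemia and 0.944 to 0.987 in Bank1/Pax5 leukemia. Pax5 itself averaged 11.96 in WT, 10.98 in Pax5 leukemia and 9.78 in Bank1/Pax5 leukemia, and neither leukemia group was called lower (limma adjusted p = 0.446 and 0.101). It was under 9 on 3 leukemia arrays, namely Pax5 array 3 and Bank1/Pax5 arrays 1 and 5. Bank1 fell by 1.54 in Bank1/Pax5 against Pax5 leukemia (limma adjusted p = 0.0265), a call that was lost in 8 of 27 alternative settings. Its mean was 9.17 in WT, 10.18 in Pax5 leukemia and 8.63 in Bank1/Pax5 leukemia, so WT lay between the leukemias. The median level of 14 measured pro-B and pre-B markers was 11.82 to 12.11 in WT, 7.13 to 11.18 in Pax5 leukemia and 7.62 to 11.37 in Bank1/Pax5 leukemia.

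Other marrow cells also carry class II, and markers of 1 such type were higher in both leukemias. Of 15 macrophage and monocyte markers, 8 rose in Pax5 leukemia and 13 in Bank1/Pax5 leukemia, beside 9.53% and 6.8% of all genes called higher. Their median level was 6.23 to 6.60 in WT, 7.95 to 8.91 in Pax5 leukemia and 8.02 to 10.56 in Bank1/Pax5 leukemia. Differences from WT over the 15 markers ran from -0.87 to 3.65 in Pax5 leukemia and from -1.08 to 4.36 in Bank1/Pax5 leukemia. The largest were those of the complement gene C1qb, typical of tissue macrophages, which rose by 3.65 and 4.36 (limma adjusted p = 3.4e-05 and 8.49e-06). Ccr2 of the same list went the other way, with means of 9.33 in WT, 8.45 in Pax5 leukemia and 8.25 in Bank1/Pax5 leukemia, and was not called. The median of 12 measured dendritic cell markers was 8.31 to 8.70 in WT, 6.47 to 8.67 in Pax5 leukemia and 6.78 to 9.23 in Bank1/Pax5 leukemia. Siglech, a plasmacytoid dendritic cell receptor, averaged 11.22 in the WT fraction, 8.20 in Pax5 leukemia (6.02 to 12.56) and 10.02 in Bank1/Pax5 leukemia (6.28 to 11.93). The 12 markers went both ways, with differences from WT of -3.02 to 1.64 in Pax5 leukemia and -2.47 to 1.44 in Bank1/Pax5 leukemia. In each leukemia 1 of the 12 was called lower and 0 higher, where 13.8% and 12.8% of all genes were called lower. The part of these cells in the class II levels was not tested beyond the correlations given with Ciita.

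The promoter letters of the class II genes are shown because Ciita acts through short motifs just ahead of the start site. RefSeq windows were searched for 7 of the listed genes and for H2-Eb2, a second beta chain gene of the I-E type. Cd74 was left out of this search, and no window was at hand for H2-Ab1 and Ciita. The windows of H2-DMa, H2-DMb1 and H2-DMb2 were searched and are not printed. The 5 stretches below are the 150 bases ahead of the start, on the strand of the gene, in build GRCm38.p6. Capitals mark the Y box CTGATTGG, its core ATTGG, the X box spelling CCNNGNAAC and the shorter AGCAAC, searched on both strands. The core lies inside the Y box, and AGCAAC can lie inside the X box spelling.
H2-Aa, chr17:34287824-34287973, minus strand: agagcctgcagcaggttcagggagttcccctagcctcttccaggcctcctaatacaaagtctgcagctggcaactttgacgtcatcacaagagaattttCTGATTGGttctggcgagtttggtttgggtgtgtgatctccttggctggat
H2-Eb1, chr17:34305717-34305866, plus strand: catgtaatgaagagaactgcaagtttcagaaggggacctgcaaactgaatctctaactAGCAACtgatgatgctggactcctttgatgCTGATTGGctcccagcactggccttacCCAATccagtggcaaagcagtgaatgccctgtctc
H2-Eb2, chr17:34325525-34325674, plus strand: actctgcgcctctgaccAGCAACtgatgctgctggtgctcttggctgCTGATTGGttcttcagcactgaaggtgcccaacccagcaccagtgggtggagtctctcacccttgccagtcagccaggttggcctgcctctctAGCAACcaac
H2-Oa, chr17:34092229-34092378, plus strand: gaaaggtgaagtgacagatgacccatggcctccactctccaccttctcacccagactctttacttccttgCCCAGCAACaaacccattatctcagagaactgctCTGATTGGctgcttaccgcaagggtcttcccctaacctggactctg
H2-Ob, chr17:34238755-34238904, plus strand: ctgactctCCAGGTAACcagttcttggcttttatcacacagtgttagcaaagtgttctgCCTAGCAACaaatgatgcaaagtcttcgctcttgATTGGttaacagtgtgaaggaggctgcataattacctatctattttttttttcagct

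The full Y box was present in the windows of H2-Aa, H2-Eb1, H2-Oa and H2-Eb2, and in 4.1% of all 32851 promoter windows of 300 bases. It began 51 bases ahead of the start in H2-Aa, 62 in H2-Eb1, 46 in H2-Oa and 103 in H2-Eb2. The core ATTGG, with or without the rest of the Y box, was in 37.4% of windows. H2-Ob, H2-DMb1, H2-DMb2 and a window of H2-DMa held the core without the full Y box. The X box spelling was in 15.1% of windows, and windows of H2-DMa, H2-DMb1, H2-Oa and H2-Ob held it. H2-Oa held it together with the full Y box, a pairing found in 0.651% of windows. The 6 letters AGCAAC, a spelling added after the windows had been read, were in 14.8% of windows. A match describes letters only, and no match says nothing about binding.

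Compared with WT precursors, none of the 8 measured genes was called in Pax5 leukemia and 1 was called in Bank1/Pax5 leukemia. That gene was H2-Ob, the beta chain of the H2-DM inhibitor, which fell by 1.48, a 2.78-fold lower level. Between the leukemias none of the 8 was called. Over all genes the same limma test called 23.3% in Pax5 leukemia against WT, 19.6% in Bank1/Pax5 leukemia against WT and 6.7% between the leukemias, so neither count of members called stood above the share over all genes. At an unadjusted p under 0.05, H2-Ob was the only member in the first comparison, H2-Ob and H2-Eb1 were the members in the second, and H2-Aa was the only member in the third. The median difference over the 8 genes was -0.37, 0.15 and 0.31 in that order, beside -0.05, -0.03 and 0.02 over all genes.

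**Figure D1:**
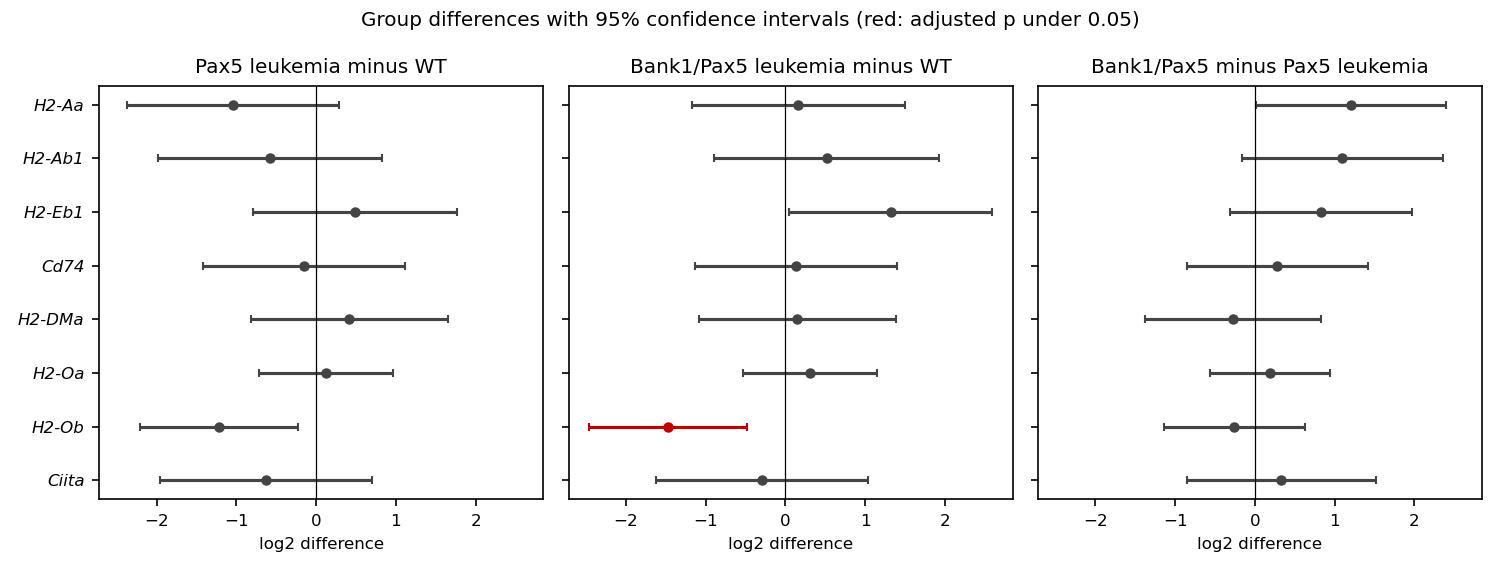
Log2 differences of the 8 measured genes in the 3 comparisons, with points for the difference of group means and bars for the 95% confidence interval of the limma fit. Only H2-Ob in Bank1/Pax5 leukemia against WT, drawn in red, had an adjusted p under 0.05, and most intervals reach across 0 and span more than 2 log2 units.

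The class II genes spread widely among the leukemias. The standard deviation over the 12 leukemia arrays ran from 0.70 for H2-Oa to 1.28 for H2-Ab1, against a median of 0.20 over all genes. These values lie at the 92.8 to 98.6 percentiles of all genes. In WT the SD of the same genes was 0.14 for H2-Ob to 0.57 for H2-Eb1, against a median of 0.09. Those WT values lie at the 79.8 to 99.6 percentiles, so a high rank in spread was not particular to the leukemias. The wide spread set the width of the intervals, and a difference that missed the threshold does not show that groups were alike.

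**Figure D2:**
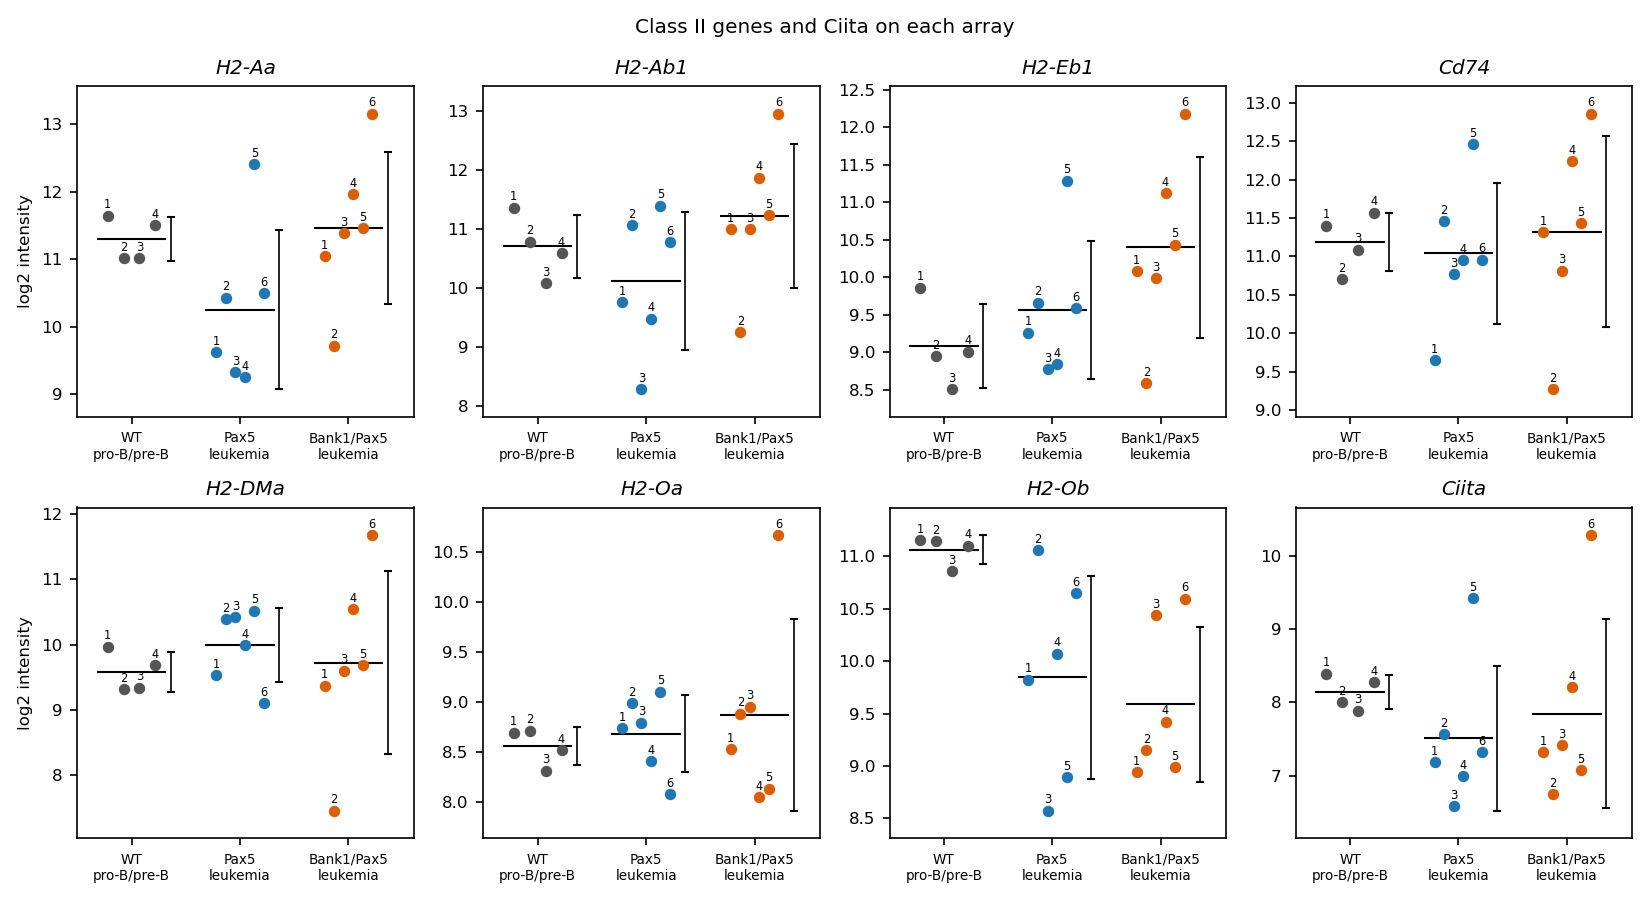
Log2 intensity of each measured gene on every array, numbered by replicate, with the group mean as a line and the SD as a bar for WT (n = 4), Pax5 leukemia (n = 6) and Bank1/Pax5 leukemia (n = 6). Each panel has its own axis; Bank1/Pax5 array 6 is the highest array in every panel except that of H2-Ob, where all Bank1/Pax5 arrays lie below WT.

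H2-Aa and H2-Ab1 encode the alpha and beta chains of I-A, the class II molecule that all standard mouse strains carry. H2-Aa read 11.64, 11.02, 11.01 and 11.51 on the 4 WT arrays. In Pax5 leukemia its lowest, median and highest values were 9.26, 10.02 and 12.40, and in Bank1/Pax5 leukemia they were 9.72, 11.42 and 13.15. Pax5 leukemia lay below every WT array on 5 of 6 arrays and above them all on array 5, whereas Bank1/Pax5 leukemia had 1 array below and 2 above. The difference from WT was -1.04 ± 0.62 (SE) in Pax5 leukemia and 0.16 ± 0.62 in Bank1/Pax5 leukemia (limma adjusted p = 0.238 and 0.885). Bank1/Pax5 exceeded Pax5 leukemia by 1.20 ± 0.56, with an unadjusted p of 0.0487 that did not pass adjustment (limma adjusted p = 0.217).

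For H2-Ab1 the WT arrays read 11.36, 10.78, 10.07 and 10.59. Pax5 leukemia ranged from 8.28 to 11.39 with a median of 10.26, and Bank1/Pax5 leukemia from 9.25 to 12.96 with a median of 11.11. The groups overlapped, with 3 Pax5 arrays and 1 Bank1/Pax5 array below every WT array. Differences from WT were -0.58 ± 0.66 and 0.51 ± 0.66 (limma adjusted p = 0.548 and 0.621). The difference between the leukemias was 1.10 ± 0.59 (limma adjusted p = 0.284), of the same sign as that of H2-Aa.

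H2-Eb1 encodes the beta chain of I-E, the other class II molecule. WT arrays read 9.86, 8.95, 8.51 and 9.01, Pax5 leukemia 8.77 to 11.29 with a median of 9.43, and Bank1/Pax5 leukemia 8.59 to 12.19 with a median of 10.26. Here 5 of 6 Bank1/Pax5 arrays lay above every WT array, while array 2 fell among the lowest. The difference of 1.32 ± 0.60 in Bank1/Pax5 leukemia against WT had an unadjusted p of 0.0437 and missed the threshold (limma adjusted p = 0.139). Without array 2 it was 1.68 and was called (limma adjusted p = 0.0354). In Pax5 leukemia the difference was 0.49 ± 0.60 (limma adjusted p = 0.582).

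Cd74 is the invariant chain that guides class II dimers to the endosome. Its WT values were 11.40, 10.71, 11.09 and 11.57. Pax5 leukemia ran from 9.65 to 12.46 with a median of 10.95, and Bank1/Pax5 leukemia from 9.27 to 12.86 with a median of 11.37. Of the 12 leukemia arrays 7 lay within the WT range, and each leukemia group had 1 array below it. Differences were -0.15 ± 0.59 and 0.13 ± 0.59 from WT and 0.28 ± 0.53 between leukemias (limma adjusted p = 0.875, 0.902 and 0.786).

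H2-DMa encodes the alpha chain of the peptide editor H2-DM. WT arrays read 9.97, 9.32, 9.34 and 9.68, and Pax5 leukemia lay between 9.10 and 10.52 with a median of 10.19. Bank1/Pax5 leukemia was wider, from 7.45 on array 2 to 11.68 on array 6, with a median of 9.64. In Pax5 leukemia 4 of 6 arrays were above every WT array, although the difference of 0.42 ± 0.58 was not called (limma adjusted p = 0.629). The other differences were 0.15 ± 0.58 for Bank1/Pax5 leukemia against WT and -0.27 ± 0.52 between the leukemias (limma adjusted p = 0.888 and 0.788).

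H2-Oa and H2-Ob form H2-DO, the inhibitor of H2-DM. H2-Ob was even across WT, at 11.16, 11.14, 10.86 and 11.10. It was 8.57 to 11.06 with a median of 9.95 in Pax5 leukemia, and 8.94 to 10.60 with a median of 9.29 in Bank1/Pax5 leukemia. All 6 Bank1/Pax5 arrays lay below every WT array, as 12.3% of all genes did, and so did 5 of 6 Pax5 arrays, all but array 2. The fall of 1.48 ± 0.46 in Bank1/Pax5 leukemia was called (limma adjusted p = 0.0369), and the difference of -1.22 ± 0.46 in Pax5 leukemia was not (limma adjusted p = 0.0702). The 2 leukemias differed by -0.26 ± 0.41 (limma adjusted p = 0.747), so a stronger fall in 1 of them was not shown.

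The H2-Ob call is a marginal one. Over 27 alternative settings its adjusted p in Bank1/Pax5 leukemia ran from 0.006 to 0.209, and it passed the threshold in 15 of them. It was lost when any 1 of the WT arrays or Bank1/Pax5 array 1, 2, 4 or 5 was left out, and without the 3 arrays low in Pax5 (difference -1.16, limma adjusted p = 0.103). In Pax5 leukemia it was gained without Pax5 array 2 (-1.46, limma adjusted p = 0.0304). Its direction was the same in every setting.

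H2-Oa, the partner of H2-Ob, was not called in any comparison. WT arrays read 8.69, 8.72, 8.31 and 8.52, Pax5 leukemia 8.08 to 9.10 with a median of 8.77, and Bank1/Pax5 leukemia 8.05 to 10.67 with a median of 8.71. Apart from Bank1/Pax5 array 6, the highest leukemia array read 9.10. Differences from WT were 0.12 ± 0.39 and 0.31 ± 0.39 (limma adjusted p = 0.842 and 0.62), and the leukemias differed by 0.18 ± 0.35 (limma adjusted p = 0.788). Whether the H2-Ob difference exceeded that of H2-Oa was not tested.

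Ciita, the coactivator that switches class II genes on, read 8.39, 8.0, 7.89 and 8.27 in WT. Pax5 leukemia gave 6.58 as the lowest, 7.25 as the median and 9.42 as the highest value, and Bank1/Pax5 leukemia gave 6.75, 7.37 and 10.29. Most leukemias were low: 5 of 6 Pax5 arrays and 4 of 6 Bank1/Pax5 arrays lay below every WT array. The exceptions were Pax5 array 5 and Bank1/Pax5 array 6, both above every WT array, and Bank1/Pax5 array 4 within the WT range at 8.21. Mean differences were therefore small beside their errors, at -0.63 ± 0.62 and -0.29 ± 0.62 (limma adjusted p = 0.486 and 0.776), and 0.33 ± 0.55 between leukemias (limma adjusted p = 0.754).

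Without those 2 high arrays, Ciita fell by 1.01 and H2-Aa fell by 1.47 in Pax5 leukemia against WT (limma adjusted p = 0.0174 and 0.0242). The Ciita difference in Bank1/Pax5 leukemia became -0.78 and was not called (limma adjusted p = 0.0573). These arrays were chosen for their Ciita level, so these values describe the other arrays and are no test of the groups.

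Among the 12 leukemia arrays the classical class II genes followed Ciita. Pearson's r with Ciita was 0.902 for H2-Eb1, 0.861 for H2-Aa, 0.798 for H2-Ab1 and 0.798 for Cd74, with adjusted permutation p-values of 0.00093, 0.00093, 0.00868 and 0.0144 over the 31 relations computed. Spearman's rho was 0.839, 0.804, 0.881 and 0.818 in the same order (adjusted permutation p = 0.0182, 0.0186, 0.0115 and 0.0182). Leaving out the 2 arrays farthest from the Ciita median left r at 0.827, 0.746, 0.857 and 0.663. The relation thus did not rest on the 2 arrays with very high Ciita alone.

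Within each leukemia group of 6 arrays the same 4 genes also had positive r values. In Pax5 leukemia r was 0.987 for H2-Eb1 and 0.965 for H2-Aa (exact permutation p = 0.00139 and 0.00556), and 0.777 for H2-Ab1 and 0.769 for Cd74 (exact permutation p = 0.0611 and 0.0931). For Bank1/Pax5 leukemia it was 0.889, 0.892, 0.87 and 0.808 for H2-Eb1, H2-Aa, H2-Ab1 and Cd74 (exact permutation p = 0.0111, 0.00972, 0.0292 and 0.0681). The within-group p-values are unadjusted.

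**Figure D3:**
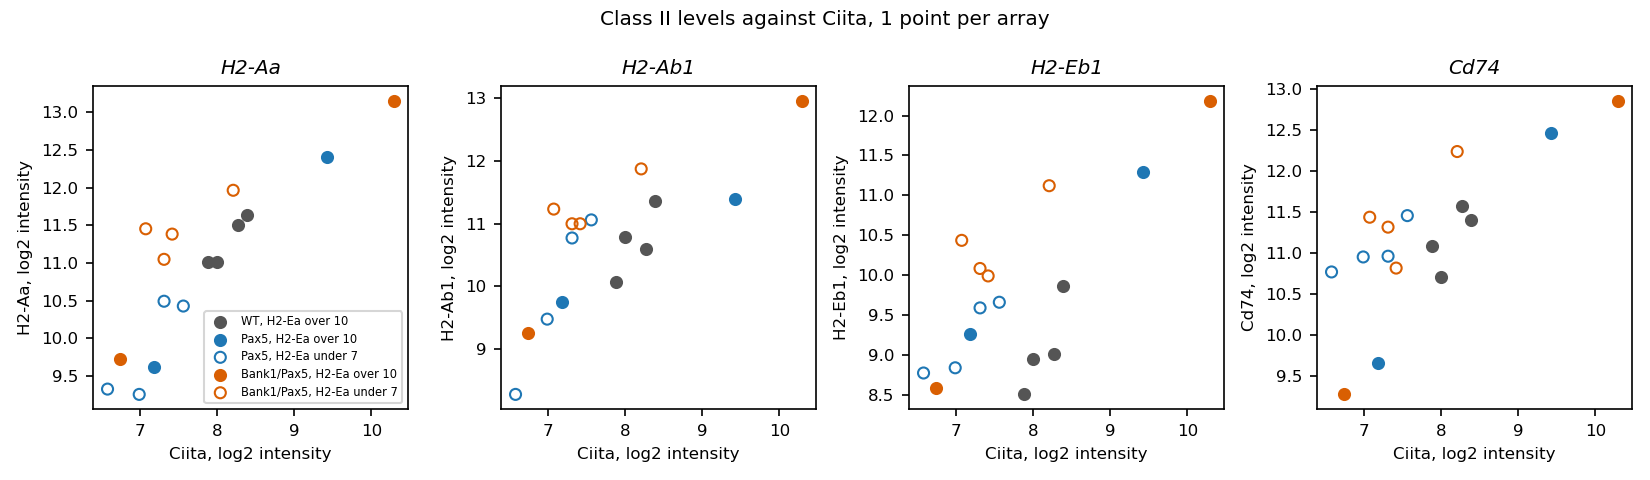
Log2 intensity of 4 class II genes against that of Ciita, 1 point per array, for WT and both leukemia groups, with filled points where H2-Ea was over 10 and open points where it was under 7. The 12 leukemia arrays rise together, with Pearson's r of 0.798 to 0.902, and Pax5 array 5 and Bank1/Pax5 array 6 stand at the top right.

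Over the 12 leukemia arrays H2-DMa, H2-Oa and H2-Ob had lower r with Ciita than H2-Aa, H2-Ab1, H2-Eb1 and Cd74. H2-DMa had an r of 0.677 and H2-Oa of 0.691, and neither passed adjustment (adjusted permutation p = 0.107 and 0.124). For H2-Oa r was -0.359 without the 2 farthest arrays, so that relation rested on them. H2-Ob had an r of 0.219 (adjusted permutation p = 0.679), and on Pax5 array 5, high in Ciita at 9.42, H2-Ob was 8.89 and among the lowest. Within Bank1/Pax5 leukemia r was 0.866, 0.774 and 0.695 for H2-DMa, H2-Oa and H2-Ob (exact permutation p = 0.0278, 0.135 and 0.075, unadjusted). There H2-DMa was close to H2-Ab1, at 0.87. Within Pax5 leukemia r was 0.339, 0.508 and -0.175 in the same order (exact permutation p = 0.539, 0.306 and 0.781, unadjusted). No test of the difference between these correlations was made.

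Relations of the members with 3 other measures were computed over the same 12 arrays. Pax5, which activates and represses many genes in B cells, had r between -0.24 for Cd74 and 0.504 for H2-Ob, and 0 of 8 relations passed (adjusted permutation p = 0.643 and 0.233 for those genes). The macrophage and monocyte list level had r of 0.656 with H2-Ab1, 0.601 with H2-Eb1, 0.594 with H2-Aa and 0.588 with Cd74 (adjusted permutation p = 0.107, 0.136, 0.136 and 0.136). By Spearman's rho H2-Ab1, H2-Eb1 and Cd74 passed, at 0.741, 0.727 and 0.734 (adjusted permutation p = 0.0432 for each). Without the 2 arrays farthest from the list's median, r was 0.826, 0.679, 0.7 and 0.718 for H2-Ab1, H2-Eb1, H2-Aa and Cd74. No test of the difference from the Ciita relations was made. Ciita itself had an r of 0.252 with that list (adjusted permutation p = 0.643).

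The dendritic cell list level had r of 0.432 with Ciita over the 12 leukemias (adjusted permutation p = 0.267), and 0 of 8 members passed. Within Bank1/Pax5 leukemia its r was 0.976 with Ciita (exact permutation p = 0.00417, unadjusted). There it was 0.872, 0.872, 0.892, 0.859 and 0.84 with H2-Aa, H2-Ab1, H2-Eb1, H2-DMa and Cd74 (exact permutation p = 0.025, 0.0278, 0.0111, 0.0347 and 0.0472, unadjusted). Within Pax5 leukemia its r with Ciita was -0.377 (exact permutation p = 0.325), and with those 5 genes it was -0.318, -0.731, -0.348, 0.454 and -0.0944. Bank1/Pax5 array 6 was the highest of its group both in that list, at 9.23, and in Ciita. The relation within Bank1/Pax5 leukemia was not computed without array 6. Over both leukemia groups together, r with Ciita was 0.193 without the 2 arrays farthest from the list's median, Bank1/Pax5 array 6 and Pax5 array 3. That value does not describe the relation within Bank1/Pax5 leukemia.

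H2-Ea and H2-Eb2 are the other I-E genes, and H2-Ea had the largest SD over the leukemias of the class II genes measured, 2.82. H2-Ea, the I-E alpha chain, read 12.04, 11.59, 12.03 and 12.60 in WT. In Pax5 leukemia it was 11.02 and 13.14 on arrays 1 and 5 and 6.29 to 6.55 on the other 4. Likewise it was 10.65 and 13.39 on Bank1/Pax5 arrays 2 and 6 and 6.48 to 6.69 on the other 4. No array lay between 7 and 10, bounds set after the values were seen, and 8 of 12 leukemias and no WT array were below 7. The mean differences from WT, -3.74 and -3.65, were not called (limma adjusted p = 0.101 and 0.123).

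H2-Ea is annotated in the C57BL/6J reference as a transcribed pseudogene, and mice of that background are known to lack the promoter of this gene and with it I-E on the cell surface. The labels name no strain, and whether the mice of these groups differed in their H2 haplotype was not tested. Low H2-Ea did not go with low levels of the other class II genes on each array. Bank1/Pax5 array 4, with H2-Ea at 6.66, had H2-Aa at 11.97 and H2-Eb1 at 11.12. Bank1/Pax5 array 2, with H2-Ea at 10.65, below every WT array, had H2-Aa at 9.72 and H2-Eb1 at 8.59. On the other side, Bank1/Pax5 array 6 and Pax5 array 5, the 2 arrays highest in H2-Ea, were also the 2 highest in H2-Aa and H2-Eb1. A relation of H2-Ea with these genes was not tested.

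H2-Eb2 differed from WT in the other direction. WT arrays read 7.56, 7.38, 7.31 and 7.64. Pax5 leukemia read 6.30 on array 3 and 9.61 to 10.87 on the others, with a median of 9.82, and Bank1/Pax5 leukemia 8.64 to 11.02 with a median of 9.45. Thus 5 of 6 Pax5 arrays and 6 of 6 Bank1/Pax5 arrays lay above every WT array, and 7.35% of all genes had all Bank1/Pax5 arrays above WT. H2-Eb2 rose by 2.05 ± 0.70 in Pax5 leukemia and 2.15 ± 0.70 in Bank1/Pax5 leukemia, 4.15-fold and 4.43-fold (limma adjusted p = 0.0466 and 0.0439). Both calls were close to the threshold and were lost in 17 and 14 of 27 settings, and in each of these settings the direction was the same. Without Pax5 array 3 the Pax5 difference was 2.70. Both leukemias are compared here with the same 4 WT arrays.

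**Figure D4:**
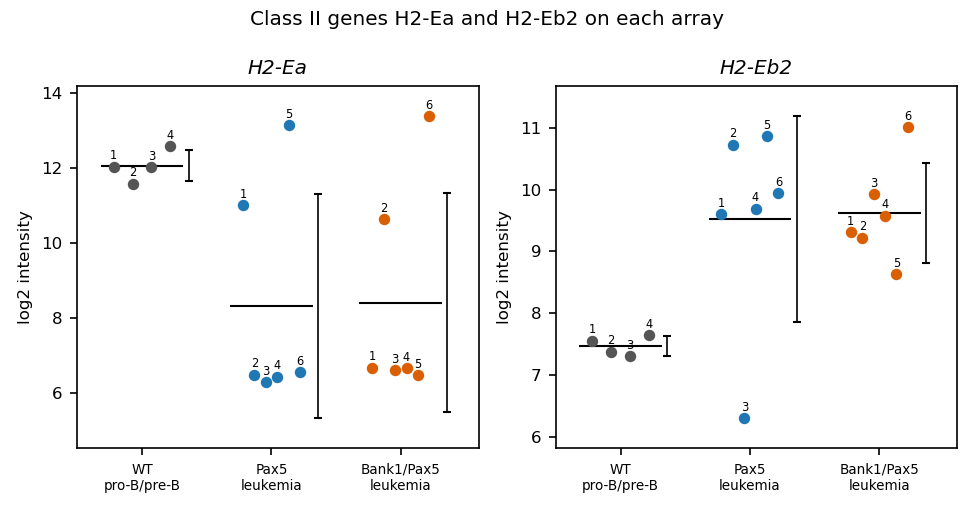
Log2 intensity of H2-Ea and H2-Eb2 on every array, numbered by replicate, with the group mean as a line and the SD as a bar for WT (n = 4), Pax5 leukemia (n = 6) and Bank1/Pax5 leukemia (n = 6). H2-Ea falls into arrays above 10 and arrays below 7, and H2-Eb2 lies above WT on all leukemia arrays but Pax5 array 3.

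The factors that assemble on class II promoters were mostly lower in leukemia, and 0 and 1 of the 8 class II genes were called lower. These counts differ in precision, because SDs over the 12 leukemia arrays were 0.14 to 0.50 for the factors and 0.70 to 1.28 for the class II genes. Whether the 2 sets differed was not tested. Of 11 listed genes all were measured. Against WT 11 of 11 fell in Bank1/Pax5 leukemia and 8 of 11 in Pax5 leukemia, none rose in either, and the median differences were -0.61 and -0.53 beside -0.03 and -0.05 over all genes. Over all genes 12.8% and 13.8% were called lower in the same fits, with 2543 genes lower and 1356 higher in Bank1/Pax5 leukemia and 2754 lower and 1901 higher in Pax5 leukemia. Cyclic loess scaling moved these splits to 2012 lower and 2034 higher and to 2225 lower and 2253 higher, and the listed genes remained lower. These genes are used at many promoters outside the class II family.

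The largest fall in the list was that of Smarca4, the ATPase of the BRG1 chromatin remodeling complex. It averaged 12.81 in WT, 11.61 in Pax5 leukemia and 11.10 in Bank1/Pax5 leukemia, and both leukemias lay below every WT array (differences -1.20 ± 0.24 and -1.71 ± 0.24, limma adjusted p = 0.00252 and 0.000197). The acetyltransferases Crebbp and Kat2b, which work with Ciita, fell by 0.54 and 0.61 in Pax5 leukemia and by 0.59 and 0.53 in Bank1/Pax5 leukemia (limma adjusted p = 0.00053, 0.000421, 0.000281 and 0.00136). Smarca4, Crebbp and Kat2b were called in all 27 settings in both comparisons. The acetyltransferase Ep300 fell by 0.50 in Bank1/Pax5 leukemia (limma adjusted p = 0.0011) and differed by -0.18 in Pax5 leukemia (limma adjusted p = 0.16). Between the leukemias it was the only gene of the list called, with a fall of 0.33 in Bank1/Pax5 leukemia (limma adjusted p = 0.0261, lost in 6 of 27 settings), where 5% of all genes were called lower.

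The DNA binding subunits are named here for their role after their values had been seen. The X box complex RFX has 3 subunits. Rfx5, Rfxank and Rfxap fell by 0.53, 0.68 and 0.33 in Pax5 leukemia (limma adjusted p = 0.0294, 0.0014 and 0.0155), with the Rfx5 call lost in 7 and the Rfxap call in 2 of 27 settings. They fell by 0.62, 0.67 and 0.27 in Bank1/Pax5 leukemia (limma adjusted p = 0.0144, 0.00182 and 0.0418), and these calls were lost in 2, 0 and 19 of 27 settings. Rfxank was called in every setting in both leukemias.

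The Y box factor NF-Y has 3 subunits as well. Nfya, Nfyb and Nfyc fell by 0.56, 0.88 and 0.61 in Bank1/Pax5 leukemia (limma adjusted p = 0.0376, 0.0101 and 0.0377), with the calls lost in 13, 1 and 13 of 27 settings. In Pax5 leukemia Nfyb fell by 0.75 (limma adjusted p = 0.0216, lost in 4 of 27 settings), whereas Nfya and Nfyc differed by -0.18 and -0.53 (limma adjusted p = 0.483 and 0.0622). Creb1, which binds beside RFX, fell by 0.42 and 0.62 (limma adjusted p = 0.0266 and 0.00303), with the calls lost in 7 and 0 of 27 settings. Over the settings the list had 4 to 9 genes called in Pax5 leukemia and 7 to 11 in Bank1/Pax5 leukemia, all of them lower. Leaving out WT array 1 gave 5 in Pax5 leukemia, and leaving out the 3 arrays low in Pax5 gave 7 in Bank1/Pax5 leukemia.

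**Figure D5:**
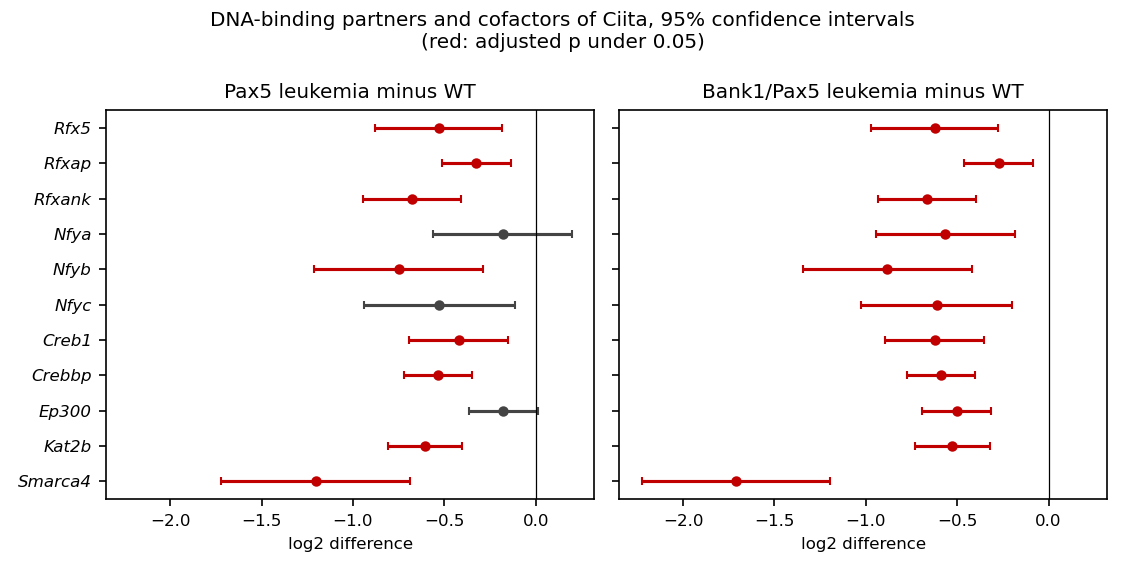
Log2 differences from WT of the 11 genes of the class II transcription apparatus in Pax5 leukemia and Bank1/Pax5 leukemia, with 95% confidence intervals of the limma fit and red for an adjusted p under 0.05. All points lie below 0, from -0.18 to -1.71.

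Among factors known to act on the Ciita gene itself, Irf4 and Tcf3 fell in both leukemias. Of 14 listed genes 13 were measured, and 3 fell and 0 rose in each leukemia, where 13.8% and 12.8% of all genes were called lower. Irf4, an interferon regulatory factor of B cells, fell by 2.67 in Pax5 leukemia and 2.35 in Bank1/Pax5 leukemia, with both leukemias below every WT array (limma adjusted p = 7.42e-05 and 0.000239). Tcf3, which encodes the E proteins of early B cells, fell by 1.06 and 1.77 (limma adjusted p = 0.0307 and 0.00166), and the first of these calls was lost in 11 of 27 settings. Irf1, which carries interferon signals to Ciita, fell by 0.78 in Pax5 leukemia (limma adjusted p = 0.00791), and its difference in Bank1/Pax5 leukemia was -0.47 (limma adjusted p = 0.095). The early B cell factor Ebf1 fell by 2.49 in Bank1/Pax5 leukemia (limma adjusted p = 0.018), and its difference in Pax5 leukemia was -1.23 (limma adjusted p = 0.198). Spi1, which drives Ciita in myeloid cells, differed by 0.31 and 0.54 and was not called (limma adjusted p = 0.357 and 0.126). Between the leukemias 0 of the 13 were called by limma.

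Genes for class II peptide loading and traffic had calls in both directions in Pax5 leukemia and higher calls in Bank1/Pax5 leukemia. All 13 listed genes were measured, of which 1 rose and 1 fell in Pax5 leukemia and 4 rose and 0 fell in Bank1/Pax5 leukemia, against 9.53% and 6.8% of all genes called higher. The gene that fell was Cd44, a surface receptor that partners the invariant chain (by 1.16, limma adjusted p = 0.0399), named after its values were seen. The endosomal protease cathepsin D, Ctsd, rose by 1.47 and 1.50 (limma adjusted p = 0.00365 and 0.0036). Lgmn, an asparagine-specific endosomal protease, rose by 0.98 in Bank1/Pax5 leukemia (limma adjusted p = 0.0125), with a difference of 0.66 in Pax5 leukemia (limma adjusted p = 0.0678). Cathepsin S, Ctss, which makes the last cuts in the invariant chain, rose by 0.96 in Bank1/Pax5 leukemia (limma adjusted p = 0.0261). Cst3, an inhibitor of cathepsins, rose by 0.57 (limma adjusted p = 0.0421), and these 2 calls were lost in 11 and 15 of 27 settings. Macrophages express these proteases strongly, and the macrophage list was higher in the same arrays; its part was not tested.

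Of 18 listed class I presentation genes 14 were measured, with 3 higher and 1 lower in Pax5 leukemia and 3 higher in Bank1/Pax5 leukemia. Over all genes 23.3% and 19.6% were called in either direction. The immunoproteasome subunit Psmb8 rose by 0.80 and 0.87 (limma adjusted p = 0.00705 and 0.00479), and the peptide trimming enzyme Erap1 by 0.80 and 0.47 (limma adjusted p = 0.000496 and 0.0184). Pdia3, a disulfide isomerase of the loading complex, rose by 0.46 and 0.47 (limma adjusted p = 0.0397 and 0.0395), and each call was lost in 13 of 27 settings. B2m, the light chain, fell by 0.17 in Pax5 leukemia (limma adjusted p = 0.0245), a call lost in 9 of 27 settings, median centring and cyclic loess among them.

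Of 8 costimulation genes, 2 rose in both leukemias, where 9.53% and 6.8% of all genes were called higher. The macrophage list, at 6.23 to 6.60 in WT and 7.95 to 10.56 in the leukemias, was higher on the same arrays, and its part was not tested. Cd86, the ligand of CD28 on presenting cells, averaged 6.10 in WT and rose by 1.54 and 1.62 (limma adjusted p = 0.028 and 0.0254). Icosl, the ligand of ICOS, averaged 7.11 in WT and rose by 1.14 and 1.34 (limma adjusted p = 0.0205 and 0.00948). Cd70, a ligand of CD27, fell by 0.20 in Pax5 leukemia (limma adjusted p = 0.0346), a call lost in 10 of 26 settings, on a dim probe set whose group means all lay below the median of 7.01 over named probe sets. Cd40, the receptor for T cell help, differed by -1.41 and -1.31 (limma adjusted p = 0.0796 and 0.115). The Cd86 calls were lost in 8 and 7 of 27 settings.

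Outside these lists, the genes whose pattern over the 12 leukemia arrays was most like that of Ciita were Fscn1, St8sia6, Selenow, Snx11 and Enox2, with r of 0.906, 0.881, 0.870, 0.870 and 0.863 among 9858 genes ranked. Without the 2 arrays farthest from the Ciita median, r was 0.55, 0.02, 0.65, 0.19 and 0.45, so the likeness of St8sia6 and Snx11 rested on those arrays. The class II level, taken as the mean of H2-Aa, H2-Ab1, H2-Eb1 and Cd74, was most like Fbxo4, Rai14, Enpp5, Ms4a4c and Il2rb, with r of 0.916, 0.872, 0.868, 0.855 and 0.853. These 5 kept r between 0.73 and 0.85 without the 2 farthest arrays. The values are the highest of many and are a description with no test.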

How the data were processed

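Total RNA was labelled with biotin and hybridised to 16 arrays. Per the submitters' processing notes, the authors used RMA and the oligo package, and the deposited values are log2 intensities per probe set. No source used here gives background settings, filters, array batches or a genome build. Of 35556 probe sets, 21789 named 1 gene, 1621 several and 12146 none in the platform annotation. Where several probe sets named a gene, as for 999 genes, the brightest on average was kept.

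The fit used limma 3.58.1 (R 4.3.3), with a mean for every group and all 16 arrays together, after a check on simulated data. Calls needed an adjusted p (Benjamini-Hochberg, over 19938 genes, two-sided) under 0.05. SE is the moderated standard error and SD that of a group. The number of arrays limits the precision. Each limma p-value sets a difference of means against a spread pooled over the 3 groups. WT spread less, with a median SD of 0.09 over all genes against 0.16 in Pax5 and 0.18 in Bank1/Pax5 leukemia. The 2 comparisons with WT share the WT arrays.

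Correlations over the 12 leukemia arrays used two-sided permutation tests with 100000 resamples, exact within groups of 6, in scipy 1.17.1. Named genes were all members, up to 4 genes of each list with the smallest p in any comparison, H2-Ea, Pax5, Bank1 and Spi1, and the 5 genes most like Ciita or the class II level. The apparatus subunits and marker examples (C1qb, Siglech) were added after their values were seen. Members and lists were chosen with earlier results of these data known. Of the other marker lists, mature B cells had 2 and 3 of 10 genes called, all lower, in Pax5 and Bank1/Pax5 leukemia against WT. T cells had 1 of 6 called lower and 0 of 6. Neutrophils and eosinophils had 0 of 10 in both. The dendritic cell list had 1 of 12 called lower in each, and the pro-B and pre-B list 4 and 5 of 14, all lower. Over all genes 13.8% and 12.8% were called lower in these comparisons, and 23.3% and 19.6% in either direction. Alternatives were a filter on dim probe sets, the mean of probe sets, cyclic loess, median centring, other moderation, array weights, only 2 groups, the replicate number as a block, a covariate from 3 Y-linked genes, no arrays low in Pax5, and each array left out. Promoters are RefSeq's, in GRCm38.p6.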

Additional observations from a re-analysis of the deposited data

Results flagged for a closer look

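Of 33 groups of 6 or 4 arrays examined for a single array far from the rest, 4 held one, and chance gives about 1 in 20. H2-Eb1 was 11.29 on Pax5 array 5, against 8.77 to 9.66 on the other Pax5 arrays. Ciita was 9.42 on that same array, against 6.58 to 7.56 on the others of its group. H2-Oa was 10.67 on Bank1/Pax5 array 6, against 8.05 to 8.95 on the others. H2-Eb2 was 6.30 on Pax5 array 3, against 9.61 to 10.87 on the others, and this array was also the one Pax5 array with a low Pax5 level, at 7.52.

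Between the leukemias, Ep300 fell by 0.33 in Bank1/Pax5 against Pax5 leukemia (difference -0.33, limma adjusted p = 0.0261), with group means of 10.58 and 10.90. It was the only one of the 11 apparatus genes whose difference from WT differed between the 2 genotypes by this test.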

How the results depend on the processing

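The count of members called in Pax5 leukemia against WT was 0, and it became 1 with dim probe sets removed, 1 with array weights and 0 to 1 with an array left out. It was 2 without the 2 arrays with Ciita over 9, a setting chosen after seeing the data. In Bank1/Pax5 leukemia against WT the count of 1 became 0 with cyclic loess, 0 with the Y-linked covariate, 0 without the arrays low in Pax5 and 0 to 1 with an array left out. There cyclic loess gave H2-Ob an adjusted p of 0.0514 and the Y-linked covariate 0.209. Between the leukemias the count was 0 in all 27 settings. Over all genes, calls in Pax5 leukemia rose to 8104 with array weights and ran from 3072 to 5560 with an array left out. In Bank1/Pax5 leukemia they rose to 6486 and ran from 2678 to 4531. Between leukemias they fell to 446 with only the 2 groups, 659 without the arrays low in Pax5 and 578 without the arrays with Ciita over 9, and ran from 725 to 1742 with an array left out. The causes were not tested.

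Same-numbered samples had deviations that correlated at -0.379 to 0.122 between the leukemias, -0.134 to 0.321 between Bank1/Pax5 leukemia and WT, and -0.284 to 0.203 between Pax5 leukemia and WT. Not every pair was over 0.1 in any of these, so the numbers were not taken to pair the samples, although samples 3 and 4 of Bank1/Pax5 and 4 of Pax5 leukemia correlated best with their own number in WT. With the replicate number as a block, calls over all genes were 3112, 2542 and 696 in the 3 comparisons and members called were 0, 0 and 0. The apparatus had 4 and 7 genes called against WT. In Bank1/Pax5 leukemia against WT the block turned H2-Aa to -0.35, H2-DMa to -0.048 and Cd74 to -0.24.

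Other turns of sign were all in differences that were not called. In Pax5 leukemia against WT, H2-Oa was -0.036 with the Y-linked covariate, and Cd74 ran from -0.43 to 0.13 with an array left out. In Bank1/Pax5 leukemia, Ciita was 0.029 without the arrays low in Pax5. Without Bank1/Pax5 array 6 and Pax5 array 5, H2-Aa was -0.18, H2-DMa -0.25, H2-Oa -0.050 and Cd74 -0.18. With an array left out these ran from -0.18 to 0.51, -0.25 to 0.60, -0.050 to 0.47 and -0.18 to 0.54, with the low end always without Bank1/Pax5 array 6. Between leukemias H2-Oa was -0.091 without both arrays with Ciita over 9. With an array left out H2-DMa ran from -0.66 to 0.18, H2-Oa from -0.17 to 0.35, Cd74 from -0.026 to 0.69 and Ciita from -0.16 to 0.71.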

Other observations

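Bank1/Pax5 array 4 had the highest macrophage and monocyte list level of all arrays, 10.56, with H2-Aa at 11.97 and Ciita at 8.21. Bank1/Pax5 array 6 had a lower level of that list, 8.99, with H2-Aa at 13.15 and Ciita at 10.29. Pax5 array 5 had 8.54, with H2-Aa at 12.40 and a pro-B and pre-B list level of 7.13, the lowest of all arrays. Pax5 array 3 stood apart in the dendritic cell list, at 8.67 against 6.47 to 6.76 on the other Pax5 arrays, with Ciita at 6.58, the lowest of all arrays.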
